A study of Mus musculus with 16 samples.

Results

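The genes described here are 10 of the 23337 gene symbols counted in the libraries, taken by name for their place in calcium, calcineurin and NFAT signalling: Stim1, Orai1, Atp2b1, Clcn3, Ppp3ca, Ppp3cb, Camk4, Nfatc1, Nfatc2 and Nfatc3. The 10 genes were chosen with earlier results of these data known, and all had enough reads to be tested. They were measured by RNA sequencing in CD4+ T cells of C57BL/6 mice, taken from lymph nodes and spleen; the mice carried Dgcr8f/f, Tbet-/- (Tbx21-/-) and CD4-cre. These alleles were shared by all 4 groups, the controls included: the Cd4 promoter drives Cre, which deletes Dgcr8, whose protein processes primary microRNA transcripts, and the cells also lack T-bet, the transcription factor of Th1 cells. Cells were stimulated through CD3 and CD28 for 3 days with 10 U/ml of IL-4 and kept for 2 more days in 20 U/ml of IL-2. A microRNA mimic, a synthetic duplex that stands in for the natural molecule, was introduced by electroporation at 500 nM on day 1 and again on day 4, and live cells positive for YFP and CD4 were sorted for RNA. There were 4 libraries, numbered 1 to 4, for each of the mimics miR-23a, miR-24 and miR-27a and for a control mimic. The labels give neither the age of the mice nor the mouse behind each library, so the p-values measure the spread between libraries, and the sequence of the control mimic is not given in the sources used here.

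When a T cell receptor is engaged, calcium leaves the endoplasmic reticulum and the sensor STIM1 in that membrane opens the ORAI1 pore in the plasma membrane. Calcium then binds calmodulin, which activates the phosphatase calcineurin and kinases such as CaMKIV. Calcineurin removes phosphates from NFAT proteins, which enter the nucleus and switch on cytokine genes, among them Il4 in Th2 cells. Calcium pumps in the plasma membrane end the signal, and chloride transporters such as CLC-3 act in endosomes and vesicles.

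The added microRNAs are shown first because their seeds (bases 2 to 8, in capitals) are what a target site pairs with. The labels do not name the arm, and the 3p arms, which are the major arms of these microRNAs, were assumed. Their mature sequences, 5′ to 3′, are from RefSeq on GRCm38.p6.
mmu-miR-23a-3p: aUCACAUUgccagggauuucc
mmu-miR-24-3p: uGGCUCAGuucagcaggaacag
mmu-miR-27a-3p: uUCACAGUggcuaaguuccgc
The 3 seeds differ from one another, those of miR-23a (UCACAUU) and miR-27a (UCACAGU) only in the base before the last. A site of miR-24 therefore reads CTGAGCCA in a messenger RNA as DNA letters when it is complete (an 8mer). CTGAGCC is the 7mer-m8 form and TGAGCCA the 7mer-A1 form.

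Seed sites of these 3 microRNAs were searched in the longest 3′ UTR that GENCODE M21 (GRCm38) annotates for a gene, on the strand of the transcript only. None of the 10 genes held an 8mer of any of the 3 microRNAs. Shorter sites of miR-24 were found in 3 of the 10 genes, Nfatc3, Clcn3 and Atp2b1, against 27.0% of the 12015 tested genes that could be searched (8mer or 7mer). The 3′ UTRs of the 10 genes had a median length of 2416.5 bases, against 1235 bases over all genes searched. The 4 sites are shown, with the site in capitals and 8 bases on each side, because these are the genes that were called lower with the miR-24 mimic.
Nfatc3, chr8:106130470-106130476, plus strand: agggaagaTGAGCCAgcagtcca
Clcn3, chr8:60912666-60912672, minus strand: ctttgaatTGAGCCAtctattaa
Clcn3, chr8:60911318-60911324, minus strand: aactggcaTGAGCCAtttttaat
Atp2b1, chr10:99026062-99026068, plus strand: tttagccaCTGAGCCttttatta
Nfatc3 and Clcn3 thus held 7mer-A1 sites and Atp2b1 a 7mer-m8 site. The annotated genes span chr8:106058840-106130537 (Nfatc3, plus strand), chr8:60910389-60983300 (Clcn3, minus strand) and chr10:98914406-99026143 (Atp2b1, plus strand). For miR-23a (sites AATGTGAA, AATGTGA and ATGTGAA), Stim1 held 1 site and Clcn3 2, so 2 of 10 genes held a site against 25.3% of all genes searched. For miR-27a (sites ACTGTGAA, ACTGTGA and CTGTGAA), Atp2b1, Clcn3 and Nfatc1 held 2 sites each and Ppp3ca held 1, so 4 of 10 held a site against 29.7%. Camk4, Orai1, Ppp3cb and Nfatc2 held no site of the 3 microRNAs. A match is a description of letters and says nothing about binding.

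Reads counted in genes ranged from 2120408 to 13714841 in 15 libraries, and control replicate 1 held 51474. In that library 1 read was worth 16.3 CPM (reads scaled to a common library size by the TMM method), and the 10 genes had 2 to 42 reads each there. Its values are therefore coarse, and each test below was also run without it. Summed CPM of 8 T cell markers was 3468 to 5219 in control, 3921 to 4669 with miR-23a, 2859 to 3830 with miR-24 and 3557 to 3996 with miR-27a, and Cd4 was read in every group (group means 386 to 660 CPM). Cd28 was the largest part of the T cell marker sum, at 2123 of 4381 CPM in the control means. With miR-24 the means of Cd28, Cd3e, Cd3g, Cd4 and Cd5 were below control, and those of Cd3d, Lck and Thy1 above it. The mean sum was 3387 CPM with miR-24 and 3675 CPM with miR-27a. The part of the lower T cell marker sum in the miR-24 results was not tested. Markers of other cells were low: 2 CD8 markers summed to at most 35.7 CPM, 6 B cell markers to at most 21.3, 8 myeloid and dendritic markers to at most 23.2, 5 class II genes to at most 114, and NK cell and red cell markers to at most 0.47 CPM in any library. In control, Pax5, Lyz2, Flt3 and Tyrobp were at 0 reads. In bulk samples, fewer cells of a type and less RNA per cell cannot be told apart.

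To compare genes with one another, levels were set per kb of annotated exon. In control libraries Atp2b1, the main plasma membrane calcium pump of many cells, stood at 53.3 ± 7.78 CPM per kb (SD, n = 4) and Camk4 at 53.2 ± 10.1. They were followed by Nfatc3 at 36.6 ± 8.20, Nfatc2 at 29.0 ± 8.91, Ppp3cb at 26.9 ± 5.65 and Nfatc1 at 24.2 ± 8.67 CPM per kb. The lowest levels were those of Orai1 at 14.5 ± 8.05, Ppp3ca at 12.3 ± 4.13, Clcn3 at 7.60 ± 3.10 and Stim1 at 4.17 ± 2.03 CPM per kb. Atp2b1 and Camk4, Nfatc3 and Nfatc2, Nfatc2 and Ppp3cb, Ppp3cb and Nfatc1, and Orai1 and Ppp3ca were closer to each other than the SD of either gene; the other 4 steps were wider than both SDs. When exons of coding transcripts alone gave the length, an alternative chosen after seeing the data, Atp2b1 remained the highest at 86.0 CPM per kb, Nfatc3 came second at 69.5, and Stim1 remained the lowest at 9.53.

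Across the 4 mimic groups, 3 of the 10 genes differed in a joint test of any difference: Clcn3, Nfatc3 and Camk4 (edgeR quasi-likelihood test with the library number as a block, Benjamini-Hochberg adjusted over all 12952 genes tested; adjusted p = 0.00547, 0.00640 and 0.0350). Over all genes tested, 9.68% passed the same test. Without the block, which left 1.94% of all genes, adjusted p was 0.0427 for Clcn3, 0.0480 for Nfatc3 and 0.151 for Camk4, so Camk4 lost its call. Atp2b1 (adjusted p = 0.0619) and Nfatc1 (0.0850) did not pass in edgeR with the block. The levels of the 10 genes by library are drawn first.

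**Figure D1:**
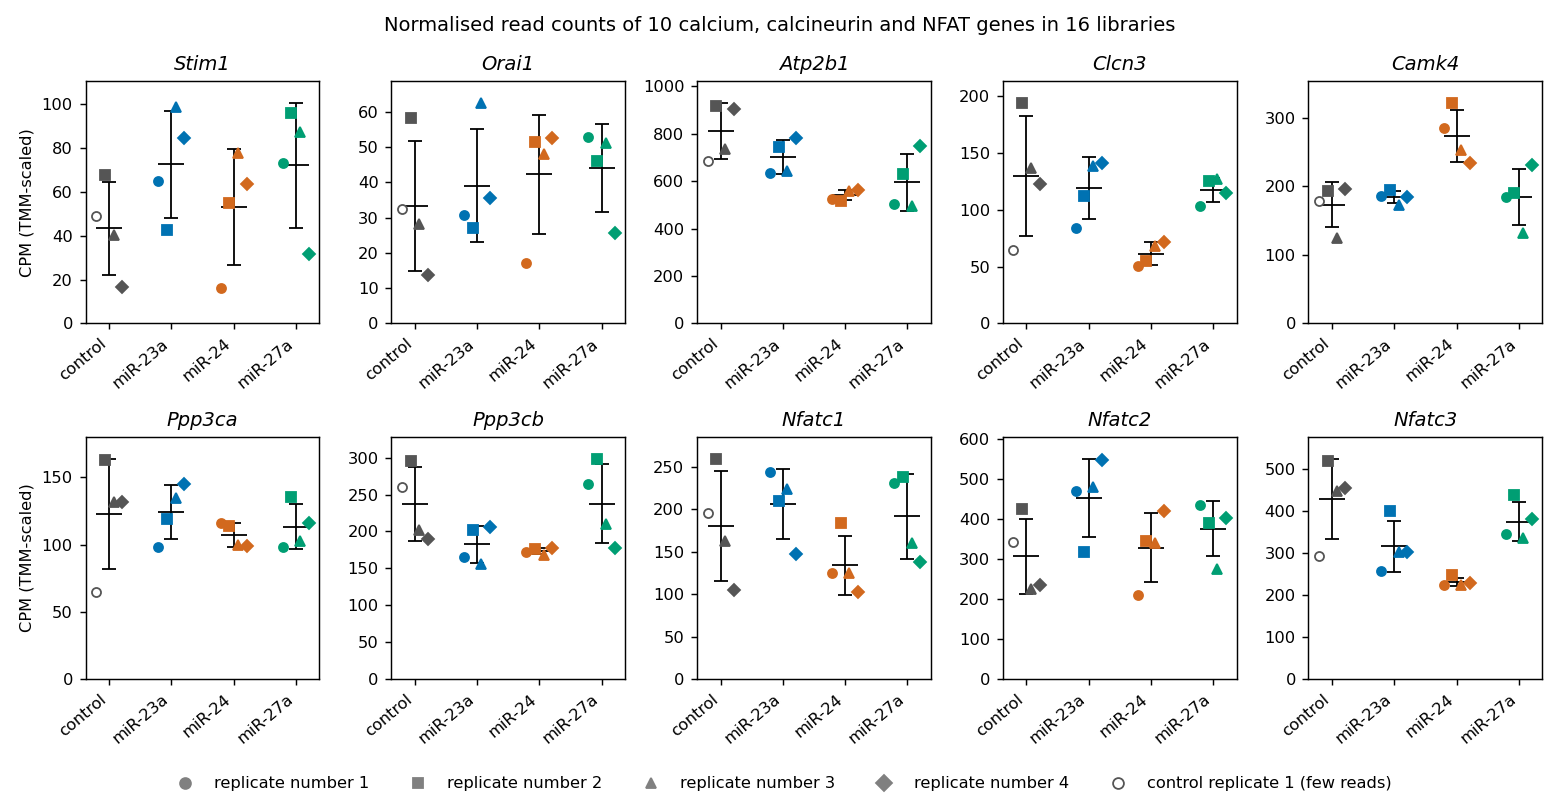
Level of the 10 genes in each library, in CPM on a linear axis from 0, by mimic group (4 libraries a group); points are libraries with shapes for replicate numbers (open circle: control replicate 1), and horizontal lines with error bars are the mean and SD. Nfatc3 sits at 224 to 247 CPM in the miR-24 libraries, below every other library of the series, and Camk4 at 234 to 321 CPM there, above every control library.

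Nfatc3 is an NFAT transcription factor of T cells and the most abundant of the 3 NFAT genes in control libraries by CPM per kb. In number order, Nfatc3 stood at 293, 520, 447 and 454 CPM in control, where the first value rests on 18 reads. It stood at 225, 247, 224 and 229 CPM with miR-24, at 257, 401, 302 and 302 CPM with miR-23a, and at 346, 438, 335 and 381 CPM with miR-27a. All 4 miR-24 libraries were lower than all 4 control libraries and spanned a narrow range, while the miR-23a and miR-27a libraries overlapped control through control replicate 1 only. Without the libraries numbered 1, both groups lay below all control libraries, and with miR-23a 4 of 4 same-number pairs were lower. With miR-24, Nfatc3 fell 1.87-fold, a log2 fold change of -0.91 ± 0.16 (SE), lower in 4 of 4 same-number pairs (edgeR quasi-likelihood test, adjusted p = 0.00387, and 0.0231 without the block). A check of the pairing, described below, was not met for miR-24 or miR-23a with control, or for miR-24 with miR-27a. Pair counts in those comparisons, here and below, are therefore a description only. Under the 24 alternatives, its adjusted p was at most 0.041 and its log2 fold change lay between -1.02 and -0.83. With miR-23a, its log2 fold change was -0.48 ± 0.16 (adjusted p = 0.166 in edgeR, 0.0207 in DESeq2), and with miR-27a it was -0.22 ± 0.16 (adjusted p = 0.436 in edgeR).

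Nfatc2 is the NFAT factor best known from resting T cells, and Nfatc1 is the family member that NFAT itself induces. Neither passed the test against control with any mimic. Nfatc2 averaged 307 ± 94.3 CPM in control (SD, n = 4), 453 ± 97.6 in the miR-23a group, 328 ± 86.9 with miR-24 and 375 ± 68.8 with miR-27a. Its libraries overlapped control in every group, with log2 fold changes of 0.61 ± 0.26, 0.13 ± 0.25 and 0.32 ± 0.25 for miR-23a, miR-24 and miR-27a. Nfatc1 averaged 180 ± 64.7 CPM in control, 206 ± 41.4 in the miR-23a group, 134 ± 34.7 with miR-24 and 192 ± 50.0 with miR-27a. With miR-24, Nfatc1 was lower than control in 4 of 4 same-number pairs, but its groups overlapped and its log2 fold change of -0.39 ± 0.18 missed the threshold (edgeR, adjusted p = 0.240). The balance of Nfatc3 and Nfatc2, chosen among the 3 Nfatc genes described here, was looked at after their values were seen and is given as a description. Reads of Nfatc3 per read of Nfatc2 averaged 1.50 ± 0.547 in control (0.857 to 1.98) and 0.749 ± 0.347 in the miR-23a group (0.549 to 1.27). The averages were 0.748 ± 0.226 with miR-24 (0.545 to 1.07) and 1.02 ± 0.186 with miR-27a (0.797 to 1.21), so each group overlapped control. The lowest control ratio was that of replicate 1, 18 reads over 21, and the next was 1.225.

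Clcn3 encodes CLC-3, a chloride and proton exchanger of endosomes. In number order, Clcn3 stood at 65.1, 194, 137 and 123 CPM in control, where the first value rests on 4 reads. With miR-24 it stood at 51.0, 55.4, 68.2 and 71.8 CPM. The only control library within the miR-24 range was replicate 1. The miR-23a libraries stood between 83.7 and 142 CPM and the miR-27a libraries between 104 and 127 CPM, all above the highest miR-24 library. With miR-24, Clcn3 fell 2.20-fold, a log2 fold change of -1.14 ± 0.21 (SE), lower in 4 of 4 pairs (edgeR quasi-likelihood test, adjusted p = 0.00412, and 0.0208 without the block). It passed in all 24 alternatives, with an adjusted p of at most 0.0409. Its smallest change, -0.86, came without control replicate 2, whose level was the highest. With miR-23a and miR-27a the log2 fold change was -0.20 in both (SE 0.20), and neither passed.

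Atp2b1 encodes PMCA1, which exports calcium. In number order, it stood at 684, 918, 738 and 906 CPM in control (42 reads in the first) and at 527, 518, 560 and 561 CPM with miR-24. All miR-24 libraries were lower than all control libraries. With miR-24, Atp2b1 fell by 0.57 on the log2 scale (SE 0.16, edgeR quasi-likelihood test, adjusted p = 0.0427), lower in 4 of 4 pairs. This call was near the threshold: it was lost without the block (adjusted p = 0.143) and in 18 of the 24 alternatives (adjusted p from 0.00555 to 0.178). With miR-27a, Atp2b1 stood at 504, 632, 494 and 750 CPM, overlapping control through 1 library, and its log2 fold change was -0.46 ± 0.16 (adjusted p = 0.103 in edgeR, 0.0205 in DESeq2). With miR-23a it was -0.21 ± 0.16.

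Camk4 encodes CaMKIV, a calmodulin-dependent kinase that acts largely in the nucleus. Its direction with miR-24 differed from that of Nfatc3, Clcn3 and Atp2b1. In number order, Camk4 stood at 179, 193, 125 and 196 CPM in control (11 reads in the first) and at 286, 321, 252 and 234 CPM with miR-24. All miR-24 libraries were higher than all control libraries, while miR-23a (173 to 195 CPM) and miR-27a (132 to 230 CPM) overlapped control. With miR-24, Camk4 rose by 0.68 on the log2 scale (SE 0.18, edgeR quasi-likelihood test, adjusted p = 0.0375), higher in 4 of 4 pairs. The call was lost without the block (adjusted p = 0.145) and in 10 of the 24 alternatives (adjusted p from 0.00161 to 0.19).

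Ppp3ca and Ppp3cb encode catalytic subunits of calcineurin, the target of cyclosporin A and FK506. Neither passed against control with any mimic. Ppp3ca averaged 123 ± 41.2 CPM in control, 124 ± 20.4 in the miR-23a group, 107 ± 8.93 with miR-24 and 113 ± 16.8 with miR-27a. Control replicate 1 stood at 65.1 CPM on 4 reads, and without it the control mean was 142 ± 18.1 CPM (n = 3). Without the libraries numbered 1, all miR-24 libraries of Ppp3ca lay below all control libraries. Its log2 fold change with miR-24 was -0.28 ± 0.19 (edgeR, adjusted p = 0.455). Ppp3cb stood at 260, 296, 202 and 190 CPM in control and at 172, 176, 168 and 177 CPM with miR-24. All miR-24 libraries of Ppp3cb were below all control libraries, and 4 of 4 pairs were lower, but the log2 fold change of -0.41 ± 0.18 missed the threshold (edgeR, adjusted p = 0.212). With miR-23a, Ppp3cb averaged 182 ± 25.4 CPM (log2 fold change -0.34 ± 0.18, adjusted p = 0.340 in edgeR), and with miR-27a 238 ± 54.0 CPM, level with the control mean of 237 ± 49.8.

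Stim1 and Orai1, the sensor and the pore of store-operated calcium entry, varied more between libraries of a group than the other 8 genes. In number order, Stim1 stood at 48.8, 67.4, 40.1 and 16.8 CPM in control, 64.9, 42.4, 98.4 and 84.2 with miR-23a, 16.2, 55.0, 77.5 and 63.6 with miR-24, and 73.2, 95.8, 87.0 and 31.8 with miR-27a. Orai1 stood at 32.6, 58.2, 28.3 and 13.9 CPM in control, 30.9, 27.1, 62.5 and 35.7 with miR-23a, 17.2, 51.4, 48.1 and 52.5 with miR-24, and 52.9, 46.0, 51.3 and 25.8 with miR-27a. All groups overlapped for both genes. The log2 fold changes of Stim1 against control were 1.02 ± 0.48, 0.48 ± 0.46 and 0.92 ± 0.47 for miR-23a, miR-24 and miR-27a, and those of Orai1 were 0.40 ± 0.42, 0.50 ± 0.41 and 0.57 ± 0.42. None passed in edgeR with the block and all 16 libraries. Stim1 with miR-27a, higher in 4 of 4 pairs, passed when only the 2 groups compared were fitted (edgeR, adjusted p = 0.00509), where 16.7% of all genes were called. Single libraries moved these values: leaving out 1 library gave Stim1 log2 fold changes of 0.63 to 1.54, 0.10 to 1.03 and 0.58 to 1.51 for the 3 mimics in the same order, and Orai1 0.043 to 1.00, 0.14 to 1.15 and 0.23 to 1.21.

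The 2 genes moved together from library to library. After removing group means of log2-CPM in the 15 libraries other than control replicate 1, Stim1 and Orai1 correlated with Pearson's r = 0.937 (permutation p = 0.00055, adjusted 0.0357 over 65 relations) and Spearman's rho = 0.773 (permutation p = 0.00405, adjusted 0.263). Without the 2 libraries farthest from the median of Stim1, control replicate 4 and miR-24 replicate 1, r was 0.841. Both genes also moved with the share of gene reads taken by Rn45s, a precursor of ribosomal RNA, which ranged from 0.300% to 19.1% between libraries. For Stim1, r with that share was 0.866 (rho 0.713, permutation p = 0.00204 and 0.0137, adjusted 0.0526 and 0.277), and 0.755 without the 2 libraries farthest in that share. For Orai1, r was 0.841 (rho 0.653, permutation p = 0.00243 and 0.018, adjusted 0.0526 and 0.277), and 0.72 without them. Neither relation with Rn45s passed an adjusted threshold of 0.05. For the 4 genes called with miR-24, r with the Rn45s share was -0.277 for Nfatc3, 0.355 for Clcn3, -0.525 for Atp2b1 and -0.527 for Camk4 (rho -0.474, 0.168, -0.501 and -0.562), and none passed (lowest adjusted permutation p 0.363 for r and 0.277 for rho). The part of Rn45s in the values of Stim1 and Orai1 was not tested. Same-number libraries may be paired, in which case these p-values are too small. Within-batch values cannot be given because the labels do not say which libraries shared a lane.

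**Figure D2:**
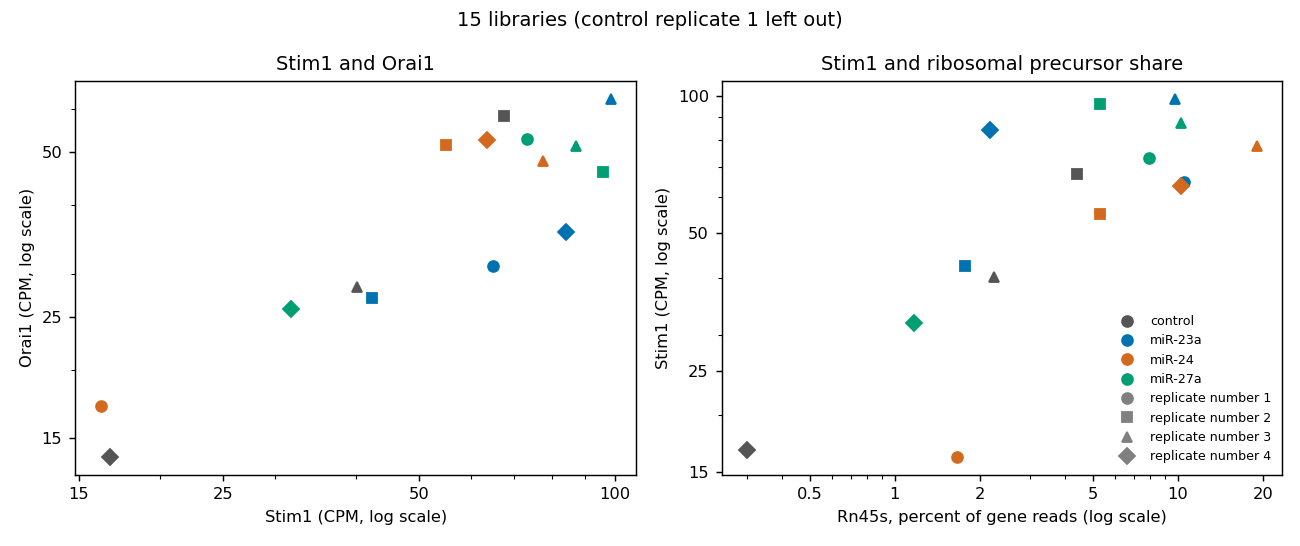
Orai1 against Stim1 in CPM (left), and Stim1 in CPM against the percent of gene reads in Rn45s (right), all axes on a log scale; each point is 1 of 15 libraries, with control replicate 1 left out, colours are mimic groups and shapes are replicate numbers. Libraries low in Stim1, such as control replicate 4 (16.8 CPM) and miR-24 replicate 1 (16.2 CPM), were also low in Orai1 (13.9 and 17.2 CPM).

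Counted over the 10 genes, miR-24 against control gave 4 calls, Nfatc3, Clcn3 and Atp2b1 lower and Camk4 higher (edgeR with the block). Over all genes tested, 4.56% were called, 2.32% higher and 2.25% lower. Without the block, 2 of the 10 remained, Nfatc3 and Clcn3, beside 0.849% of all genes. Libraries of the 2 groups did not overlap for Nfatc3, Atp2b1 and Ppp3cb (lower) and Camk4 (higher), 4 of 10 genes against 6.78% of all genes (2.74% lower and 4.04% higher). The median log2 fold change of the 10 genes was -0.33, against 0.04 over all genes. Because the 10 genes were chosen with earlier results of these data known, these counts cannot show an excess over all genes. They are a description only. For miR-23a and for miR-27a against control the counts were 0 of 10 in edgeR, where 0.425% and 3.07% of all genes were called. At an unadjusted p under 0.05 there were 3 of 10 genes for miR-23a and 1 for miR-27a, beside 17% and 21.8% of all genes. For each of these 2 mimics, DESeq2 called 1 of the 10 genes (Nfatc3 with miR-23a, Atp2b1 with miR-27a), beside 3.19% and 7.96% of all genes, and limma called 0, beside 0.247% and 3.1%. The median log2 fold change of the 10 genes was 0.02 with miR-23a and 0.06 with miR-27a. These 3 comparisons share the same control libraries.

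**Figure D3:**
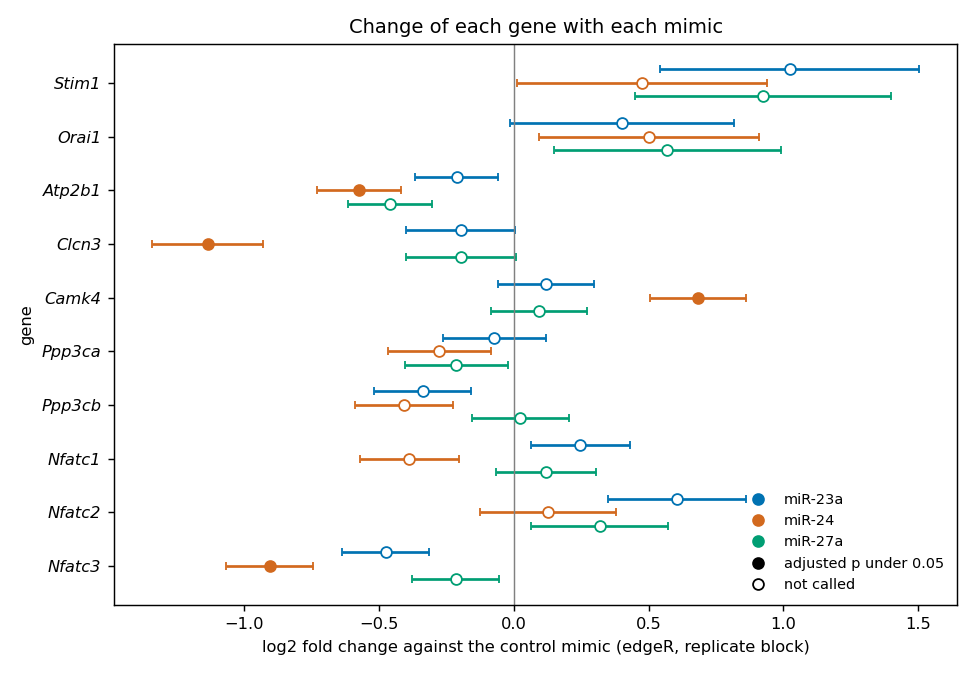
Log2 fold change of each of the 10 genes against the control mimic for miR-23a, miR-24 and miR-27a, with SE bars, from the edgeR fit with the library number as a block (n = 4 a group). With miR-24, the changes of Clcn3 (-1.14), Nfatc3 (-0.91), Atp2b1 (-0.57) and Camk4 (0.68) passed the adjusted threshold of 0.05, and none passed with the other 2 mimics.

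Of the genes called lower with miR-24, all 3 held a 7mer of the miR-24 seed in the 3′ UTR, and the 7 other genes, Camk4 among them, held none. This split depends on the call threshold. Ppp3cb and Nfatc1, with no miR-24 site, were not called but were lower with miR-24 in 4 of 4 pairs each. Ppp3ca, also with no miR-24 site and not called, was lower in 3 of 4 pairs. For Ppp3cb the libraries did not overlap control. The call of Atp2b1 was lost in 18 of the 24 alternatives. Clcn3 also held 2 sites of miR-23a and 2 of miR-27a, and its levels with both overlapped control. Stim1 held 1 site of miR-23a, and its log2 fold change with that mimic was 1.02 ± 0.48. Nfatc1 held 2 sites of miR-27a and Ppp3ca 1, with log2 fold changes of 0.12 ± 0.18 and -0.21 ± 0.19 with that mimic. None of these was called in edgeR with the block and all 16 libraries. Atp2b1 held 2 sites of miR-27a, and its change missed the threshold in edgeR and in limma with all 16 libraries but passed in DESeq2 and in edgeR with only the 2 groups (adjusted p = 0.0226). Over all genes searched, 27.0% held a miR-24 site, and the median 3′ UTR was 1235 bases, against 2416.5 for the 10 genes. With so few genes this is a description of 10 genes and not a test.

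**Figure D4:**
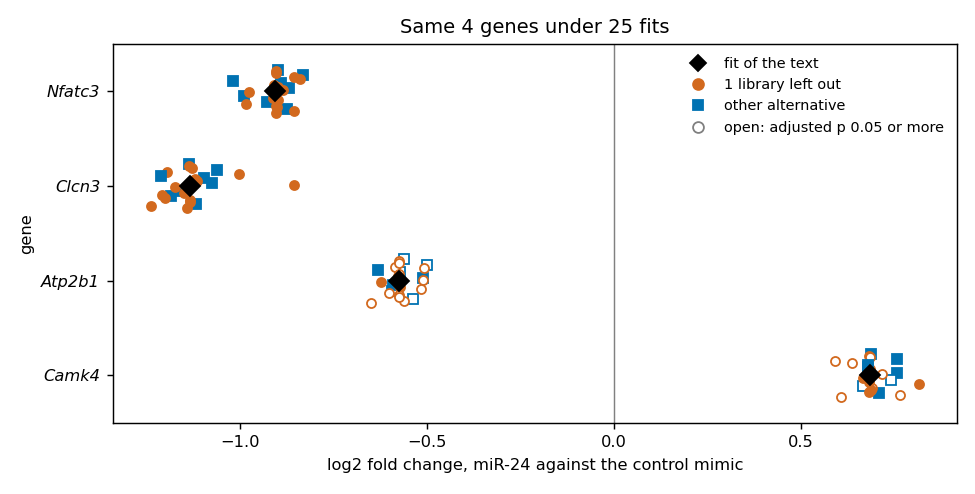
Log2 fold change of Nfatc3, Clcn3, Atp2b1 and Camk4 with miR-24 against the control mimic in 25 fits (the reported fit, 16 that leave out 1 library, and 8 other alternatives); open symbols have an adjusted p of 0.05 or more. Clcn3 and Nfatc3 passed in every fit, while Atp2b1 was lost in 18 of 24 and Camk4 in 10 of 24, with no change of direction.

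The mimics were also compared with one another, which leaves control replicate 1 out of the contrast. Against miR-27a, miR-24 gave lower Clcn3 (log2 fold change -0.94 ± 0.19, edgeR quasi-likelihood test, adjusted p = 0.00928) and lower Nfatc3 (-0.69 ± 0.16, adjusted p = 0.0158), 2 of 10 genes, beside 4.42% of all genes, with 2.62% lower. Without the block, which called 0.88% of all genes, adjusted p was 0.0656 for Clcn3 and 0.0847 for Nfatc3, so neither was called. Camk4 was 0.59 ± 0.17 higher with miR-24, which missed the threshold in edgeR (adjusted p = 0.0544), with no overlap and 4 of 4 pairs higher. It passed in DESeq2, in limma and in edgeR with DESeq2 size factors, which called 8.41%, 7.65% and 4.36% of all genes. Against miR-24, miR-23a gave higher Clcn3 (0.94 ± 0.19, edgeR, adjusted p = 0.00743) and higher Nfatc1 (0.64 ± 0.18, adjusted p = 0.0398), 2 of 10 genes beside 5.38% of all genes, with 2.73% higher. Without the block, which called 1.1% of all genes, these were 0.0563 and 0.346. The miR-23a and miR-24 libraries of Clcn3 did not overlap, while those of Nfatc1 did (147 to 243 CPM against 103 to 184 CPM). The difference in Nfatc3 between miR-23a and miR-24, 0.43 ± 0.16, did not pass in edgeR (adjusted p = 0.127) but passed in DESeq2, which called 8.58% of all genes. Its libraries did not overlap, and 4 of 4 pairs were higher with miR-23a. Camk4 was 0.56 ± 0.17 lower with miR-23a than with miR-24, with no overlap and 4 of 4 pairs lower. That missed the threshold in edgeR (adjusted p = 0.0596) and passed in DESeq2 and in edgeR with DESeq2 size factors (5.12% of all genes called), where Nfatc1 lost its call. Between miR-23a and miR-27a, 0 of 10 genes were called by edgeR, DESeq2 or limma, beside 2.95%, 5.65% and 4.04% of all genes. At an unadjusted p under 0.05 there were also 0 of 10, beside 15.9% of all genes.

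Other genes of the pathway were taken from 7 lists with 104 genes, of which 97 were tested. Il2, Il3, Ifng, Nfatc4, Ppp3r2, Atp2b2 and Trpc1 had too few reads. With miR-24, 2 of the 97 rose and 4 fell in edgeR with the block (6.19%, beside 4.56% of all genes). With miR-27a, 1 rose and 3 fell (4.12%, beside 3.07% of all genes, 1.75% higher and 1.32% lower). With miR-23a, 0 were called in edgeR (beside 0.425% of all genes), 0 in limma (0.247%) and 5 in DESeq2 (3.19%). The shares called in edgeR at the adjusted threshold were near those over all genes. At an unadjusted p under 0.05 in edgeR there were 24 of 97 for miR-23a, beside 17% of all genes. For miR-27a there were 30 of 97, beside 21.8%.

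The called genes with miR-24 were spread over 3 of the lists. Among 12 genes of store-operated calcium entry, Orai2, a relative of the ORAI1 pore, fell by 0.74 on the log2 scale (SE 0.20, edgeR, adjusted p = 0.0458), from 50.1 ± 17.7 to 33.3 ± 6.80 CPM. Among 17 other ion channels and their partners, P2rx7, a channel opened by extracellular ATP, fell by 2.25 (SE 0.32, edgeR, adjusted p = 0.000829), from 24.2 ± 12.5 to 4.85 ± 1.87 CPM. Ostm1, the partner of the lysosomal chloride transporter CLC-7, fell by 1.18 (SE 0.24, edgeR, adjusted p = 0.00877), from 51.1 ± 20.2 to 19.6 ± 4.64 CPM. The miR-24 libraries lay below all control libraries for P2rx7 and Ostm1, and overlapped control for Orai2. Trpv2, a cation channel, rose by 1.56 (SE 0.30, edgeR, adjusted p = 0.00670), from 10.0 ± 8.78 to 32.3 ± 12.2 CPM, with control replicate 1 at 0. Among 20 NFAT target genes, Irf4, a transcription factor of activated T cells, fell by 0.64 (SE 0.18, edgeR, adjusted p = 0.0450), and Tnf, a cytokine, rose by 1.03 (SE 0.28, adjusted p = 0.0443). Irf4 libraries did not overlap control, and Tnf libraries did. Without the block, P2rx7 (adjusted p = 0.0405) and Ostm1 (0.0335) kept their calls, while Orai2 (0.232), Trpv2 (0.211), Irf4 (0.154) and Tnf (0.419) lost theirs in edgeR.

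With miR-27a, Egr2, a transcription factor induced by NFAT, rose by 1.79 on the log2 scale (SE 0.23, edgeR, adjusted p = 0.000877), from 22.0 ± 8.16 to 64.3 ± 16.9 CPM, with no overlap. Il2ra, the IL-2 receptor alpha chain, fell by 0.98 (SE 0.17, edgeR, adjusted p = 0.00450), Calm3, a calmodulin gene, by 1.11 (SE 0.23, adjusted p = 0.0149), and P2rx7 by 1.51 (SE 0.33, adjusted p = 0.0195). Calm3 went from 103 ± 28.7 to 47.7 ± 8.22 CPM with no overlap, while Il2ra and P2rx7 libraries overlapped control. Without the block, which called 0.17% of all genes, Egr2 kept its call in edgeR (adjusted p = 0.0260), and Il2ra (0.235), Calm3 (0.121) and P2rx7 (0.202) lost theirs.

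Rcan1, a calcineurin inhibitor whose message is itself a sensitive readout of NFAT, was read at low levels: 1.88 ± 1.78 CPM in control, 8.54 ± 2.71 in the miR-23a group, 3.88 ± 0.765 with miR-24 and 5.45 ± 2.84 with miR-27a. All miR-23a libraries lay above all control libraries, and the log2 fold change of 1.87 ± 0.42 missed the threshold in edgeR (adjusted p = 0.0576). Control replicate 1 stood at 0 for Rcan1 and could not show levels this low, as 1 read there was worth 16.3 CPM. Rcan1 was called with miR-23a by edgeR with no filter on low counts (0.426% of all genes called) and by DESeq2 (3.19%). Il4 stood at 29.8 ± 9.43 CPM in control and between 19.0 and 19.6 CPM on average with each mimic. Its log2 fold changes were -0.59, -0.57 and -0.57 for miR-23a, miR-24 and miR-27a, lower in 4 of 4 pairs each, and none passed in edgeR (adjusted p = 0.259, 0.240 and 0.223). The Il4 value of control replicate 1, 16.3 CPM, was 1 read. All 3 pairs numbered 1 rest on that read, and the 3 comparisons share the same control libraries.

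**Figure D5:**
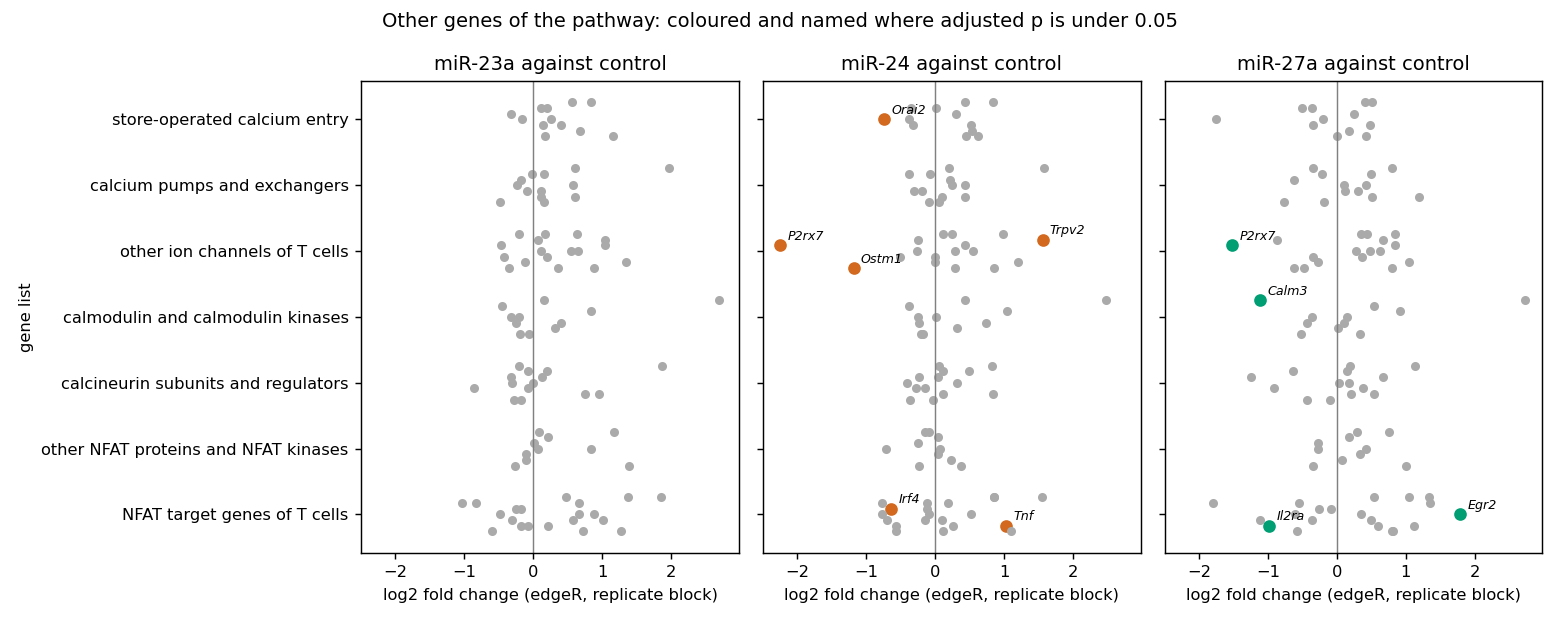
Log2 fold changes of the tested genes in the 7 pathway lists for each mimic against control; each point is a gene, and coloured, named points passed the adjusted threshold of 0.05. With miR-24, 6 of 97 passed, from P2rx7 at -2.25 to Trpv2 at 1.56, and with miR-27a 4 of 97 passed.

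The genes whose pattern was most like that of the leading 3 genes were found over 15 libraries among 4746 genes with higher counts, after removing the mean of each library number. For Nfatc3 they were Mapk9 (r = 0.961), Cnih4 (0.945) and Sub1 (0.939). For Clcn3 they were Avl9 (r = 0.968), Wdr12 (0.957) and Sri (0.949). For Camk4, Osm (r = 0.923) and Hk2 (0.885) were among them. Mapk9 encodes the kinase JNK2, and Sri the calcium-binding protein sorcin. These correlations are taken as the highest of many and share libraries and group differences, so they are given as a description with no p.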

How the data were processed

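The authors deposited 1 file of raw read counts per library, with 23337 gene symbols and 5 summary lines. The summary lines (64.6% to 77.6% of reads) entered neither library sizes nor tests. Per the labels' protocols, 1 ng of RNA from 150000 to 800000 sorted cells was amplified with the NuGEN Ovation system and read as single 50-nt reads. Bowtie2, TopHat, DESeq and the mm10 build are named, without versions, in the submitters' processing notes. The counter, annotation and strand setting are not given in the sources used here, so reads of overlapping antisense genes could not be told apart.

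Sample titles gave the groups and library numbers. The fit was made with edgeR 4.0.16 (R 4.3.3): filterByExpr by group (12952 genes), TMM scaling, all 16 libraries in 1 fit with group and library number as terms, and a two-sided quasi-likelihood F test (robust), Benjamini-Hochberg adjusted over all genes at 0.05. Log2-CPM used a prior count of 2. The script was tested on simulated data. The biological coefficient of variation was 0.29 with the number as a block and 0.389 without. No pair of libraries was identical.

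The block was used as the gene selection asks for it. Same-number libraries were correlated over 4746 genes after removing group means, and a pairing was accepted where all 4 correlations passed 0.1. It was met for miR-27a with control (lowest 0.198), miR-23a with miR-24 (0.35) and miR-23a with miR-27a (0.257), and not for miR-23a with control (-0.121), miR-24 with control (0.0304) or miR-24 with miR-27a (-0.0072). Values without the block stand beside each call of the edgeR fit with the block and all 16 libraries. Every alternative other than the fit without the block kept it, DESeq2 and limma included. In edgeR without the block, adjusted p was 0.376 for Nfatc3 with miR-23a against control. With miR-27a against control it was 0.267 for Atp2b1 and 0.473 for Stim1. For Camk4 it was 0.188 in miR-24 against miR-27a and 0.194 in miR-23a against miR-24.

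The 10 genes and the lists were chosen with earlier results of these data known. Named genes were all 10, up to 3 called genes per pathway list with a mean log2-CPM of at least 3, Rcan1, Il4 and Nfatc4, and for the 3 genes with the smallest adjusted p the 3 most alike, of which 1 is not reported here. Relations between genes used 100000 permutations of 15 libraries. Alternatives were DESeq2 1.42.0, limma 3.58.1 (voom with quality weights), edgeR with DESeq2 size factors, no filter, only the 2 groups compared, Rn45s left out, each library left out, and, added after seeing the data, no libraries numbered 1.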

Additional observations from a re-analysis of the deposited data

Results flagged for a closer look

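Orai1 in miR-24 replicate 1 stood apart from the other 3 libraries of its group: 17.2 CPM (103 reads) against 48.1 to 52.5 CPM, a gap of 0.876 of the group's range, above Dixon's 95% critical value for 4 samples. It was the only such value among 40 groups of libraries looked at (10 genes in 4 groups), and chance flags about 1 in 20 groups. The same library was also the lowest of its group in Stim1, at 16.2 CPM.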

How the results depend on the processing

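Of the calls against control, those of Nfatc3 and Clcn3 with miR-24 held in all 24 alternatives. All of these but the fit without the replicate block kept that block. The count for miR-24 went from 4 of 10 (4.56% of all genes called) to 2 with no replicate block (0.849%) and 2 with only the 2 groups compared (3.87%). It was 4 with DESeq2 (8.44%). It was 3 with DESeq2 size factors in edgeR (4.49%), no filter (2.97%), limma (3.17%) or Rn45s left out (4.26%). When 1 library was left out it lay between 2 and 4. Atp2b1 was lost without 13 of the 16 libraries (adjusted p up to 0.174), all but miR-23a replicate 1, miR-24 replicate 1 and miR-27a replicate 4. Camk4 was lost without any 1 control library, miR-24 replicate 2 or 3, or miR-27a replicate 2 (up to 0.19). For miR-23a against control the count went from 0 to 1 with DESeq2 (3.19% of all genes called). For miR-27a it went from 0 to 1 with DESeq2 (7.96%) and to 2 with only the 2 groups (16.7%). Those 2 were Atp2b1 (adjusted p = 0.0226 in edgeR) and Stim1 (0.00509). For miR-24 against miR-27a the 2 calls became 0 with no replicate block (0.88% of all genes called) and 1 with only the 2 groups (1.24%). With Camk4 added they became 3 with DESeq2 (8.41%), limma (7.65%) or edgeR with DESeq2 size factors (4.36%). When 1 library was left out the count was 0 to 3. There Clcn3 was lost without miR-24 replicate 2 (adjusted p = 0.0634) and Nfatc3 without miR-24 replicate 2 or 3 or miR-27a replicate 1 or 2 (up to 0.0943). For miR-23a against miR-24 the 2 calls became 0 with no replicate block (1.1% of all genes called) and 4 with DESeq2 (8.58%). They became 1 with no filter (3.5%), limma (3.54%), only the 2 groups (4.24%) or no libraries numbered 1 (2.59%). When 1 library was left out the count was 0 to 3. With DESeq2 size factors in edgeR (5.12%) the count was again 2, with Camk4 in place of Nfatc1. In that comparison Clcn3 was lost without miR-24 replicate 2 (0.0534) and Nfatc1 without any of 9 libraries (up to 0.177). The joint test gave 1 to 4 genes against 3 when 1 library was left out. Pathway genes called with miR-23a went from 0 to 5 with DESeq2 (3.19% of all genes called), 1 with no filter (Rcan1, 0.426%) and 0 to 2 by library. With miR-24 they went from 6 to 2 with no replicate block (0.849%), 11 with DESeq2 (8.44%) and 2 to 12 by library. With miR-27a they went from 4 to 1 with no replicate block (0.17%), 10 with DESeq2 (7.96%), 17 with only the 2 groups (16.7%) and 2 to 10 by library. Directions turned only for values that passed no test: Ppp3ca with miR-23a (0.0073 with only the 2 groups) and Ppp3cb with miR-27a (-0.014 with only the 2 groups, -0.0041 without libraries numbered 1). When 1 library was left out they turned for Clcn3 with miR-23a (-0.31 to 0.072) and miR-27a (-0.31 to 0.081), Ppp3ca with miR-23a (-0.16 to 0.022), Nfatc2 with miR-24 (-0.054 to 0.43), Camk4 with miR-27a (-0.044 to 0.18) and Ppp3cb with miR-27a (-0.053 to 0.14). The cause of these shifts was not tested. Control replicate 1, with 51474 gene reads, limits the precision of every comparison with control.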
